A study of Mus musculus with 30 samples.

Results

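The Myc and Myb families are 2 groups of nuclear transcription factors that were examined here in differentiating mouse embryonic stem (ES) cells. Their 7 members were picked by name as Myc, Mycn, Mycl1 (also called Mycl), their shared partner Max, Myb, Mybl1 and Mybl2, out of 23284 genes in each of 2 tables of RNA-seq values. All 7 were present in both tables and passed the filter on low values. The RNA libraries came from a study of how p53 works with Wnt and TGF-β inputs on genes of the mesendoderm, which gives rise to both mesoderm and endoderm. The first table holds a time course of E14Tg2a.IV, a wild-type ES cell line of 129/Ola background that was kept on gelatin in medium with serum and LIF and then left to form embryoid bodies (EBs), with 2 libraries at each of day 0 (ES cells), 1, 2, 3 and 4. The second holds EBs at day 4 from C57BL/6J ES cell lines that were kept in serum-free N2B27 with LIF and 2 inhibitors (2i), with 2 libraries from a Trp53-/- line with shRNAs to p63 and to p73 (named p53 family loss in the text), and 2 from a Trp53+/+ line. Each genotype is therefore 1 line, and the strain and the ES cell medium differ between the 2 tables.

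MYC, MYCN and MYCL are basic helix-loop-helix leucine zipper proteins that bind DNA as dimers with MAX, at E-boxes such as CACGTG, and raise genes for ribosome building, nucleotide synthesis and growth. In ES cells, Myc and Mycn are known for supporting self-renewal, and either can stand in for much of the work of the other. MYB proteins bind DNA at sequences related to AACNG through tandem repeats. Myb (c-Myb) is best known from blood progenitors, Mybl1 (A-Myb) from male meiosis, and Mybl2 (B-Myb) from dividing cells of many kinds, where it joins the MuvB complex to switch on genes of the G2 and M phases.

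The promoters of the 4 members that changed over the 5 days are shown because their levels moved in different directions. Of the 7 members, 5 have an entry in the RefSeq promoter table (build GRCm38.p6), which runs from 250 bases before to 50 bases after the annotated start of the gene, and Myc and Mybl1 do not. Each sequence is printed on the strand of its gene, with capitals for matches on either strand. The motifs are the E-box CACGTG, an E2F-type motif, GGCGGGA, a form of the cell cycle homology region, TTTGAA, and the string CTTTGAT. The Mycn promoter lies at chr12:12941787-12942086 (minus strand), that of Mycl1 at chr4:122995681-122995980 (plus strand), that of Myb at chr10:21160935-21161234 (minus strand) and that of Mybl2 at chr2:163054385-163054684 (plus strand).
Mycn: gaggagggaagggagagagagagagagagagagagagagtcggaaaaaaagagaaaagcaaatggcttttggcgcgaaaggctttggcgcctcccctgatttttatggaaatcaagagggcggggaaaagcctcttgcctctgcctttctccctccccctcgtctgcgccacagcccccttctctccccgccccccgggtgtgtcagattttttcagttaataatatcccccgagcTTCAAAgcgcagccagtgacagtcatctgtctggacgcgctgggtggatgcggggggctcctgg
Mycl1: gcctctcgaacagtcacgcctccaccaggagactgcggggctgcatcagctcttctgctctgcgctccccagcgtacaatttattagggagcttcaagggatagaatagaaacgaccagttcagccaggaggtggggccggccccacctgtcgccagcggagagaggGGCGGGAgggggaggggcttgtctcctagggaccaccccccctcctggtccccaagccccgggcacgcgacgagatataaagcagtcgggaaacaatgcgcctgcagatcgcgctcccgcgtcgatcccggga
Myb: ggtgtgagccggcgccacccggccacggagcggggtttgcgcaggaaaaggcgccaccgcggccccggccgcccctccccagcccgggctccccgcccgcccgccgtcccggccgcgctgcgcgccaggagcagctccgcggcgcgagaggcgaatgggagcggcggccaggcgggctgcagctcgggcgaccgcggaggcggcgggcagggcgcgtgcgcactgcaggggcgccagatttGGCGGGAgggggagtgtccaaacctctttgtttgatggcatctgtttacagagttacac
Mybl2: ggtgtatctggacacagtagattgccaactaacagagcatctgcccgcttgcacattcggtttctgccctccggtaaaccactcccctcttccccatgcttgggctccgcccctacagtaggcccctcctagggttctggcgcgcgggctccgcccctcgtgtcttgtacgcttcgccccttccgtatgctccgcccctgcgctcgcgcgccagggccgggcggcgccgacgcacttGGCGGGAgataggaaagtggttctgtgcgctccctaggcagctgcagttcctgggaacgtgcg

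GGCGGGA was found in the promoters of Mybl2, Myb and Mycl1, with its first base at -13, -9 and -83, counting back from -1 before the start. Of 32851 promoters of the same length, 11.3% hold this motif. Other E2F-type strings were not searched, so a window without GGCGGGA, such as that of Mycn, may still hold an E2F-type site. The Mycn window held TTTGAA on the opposite strand at -14, a motif found in 17.9% of promoters. The Max window, at chr12:76962199-76962498 (minus strand), held the E-box CACGTG at -3, found in 7.15% of promoters. CTTTGAT was not found in these 5 windows (3.73% of all promoters), and AACNG, which is not capitalised and overlaps none of the capitals, was found in all 5 and in 80.3% of promoters. The G and C content was 56.7% for Mycn, 64.0% for Mycl1, 64.7% for Max, 75.0% for Myb and 64.7% for Mybl2, against a median of 52.7% over all promoters. Mybl2 and Myb thus share the same E2F-type letters close to the start, although Mybl2 was highest at day 0 and Myb at days 2 and 3. These are matches of letters and were not tested as binding sites.

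Libraries held 20104644 to 39835808 reads in the time course and 19104692 to 31580252 in the genotype table. In E14 cells, 5 pluripotency markers summed to 778 and 674 CPM (counts scaled to a common library total) at day 4, against 3232 and 3263 CPM at day 0, and 5 markers of primitive streak and mesoderm to 1878 and 1647 CPM at day 4, against 18.6 and 11.2 CPM at day 0. The 2 libraries of day 0 stood apart from each other. Of 10 immediate early genes, which respond within minutes to serum and growth factors, 10 were higher in replicate 1 than in replicate 2. Their median difference was 2.03 on the log2 scale, while 8021 of all 15841 tested genes were higher in replicate 1. The p53 targets Cdkn1a (9923 and 1272 normalised reads in replicates 1 and 2) and Mdm2 (10751 and 4282) were also higher in replicate 1. The cause of the gap was not tested. Member results for day 4 against day 0 are therefore also given without each day 0 library where it changes them. Calls of list genes that depend on 1 library are named after the lists. In bulk RNA, fewer cells of a type and less RNA per cell cannot be told apart.

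**Figure D1:**
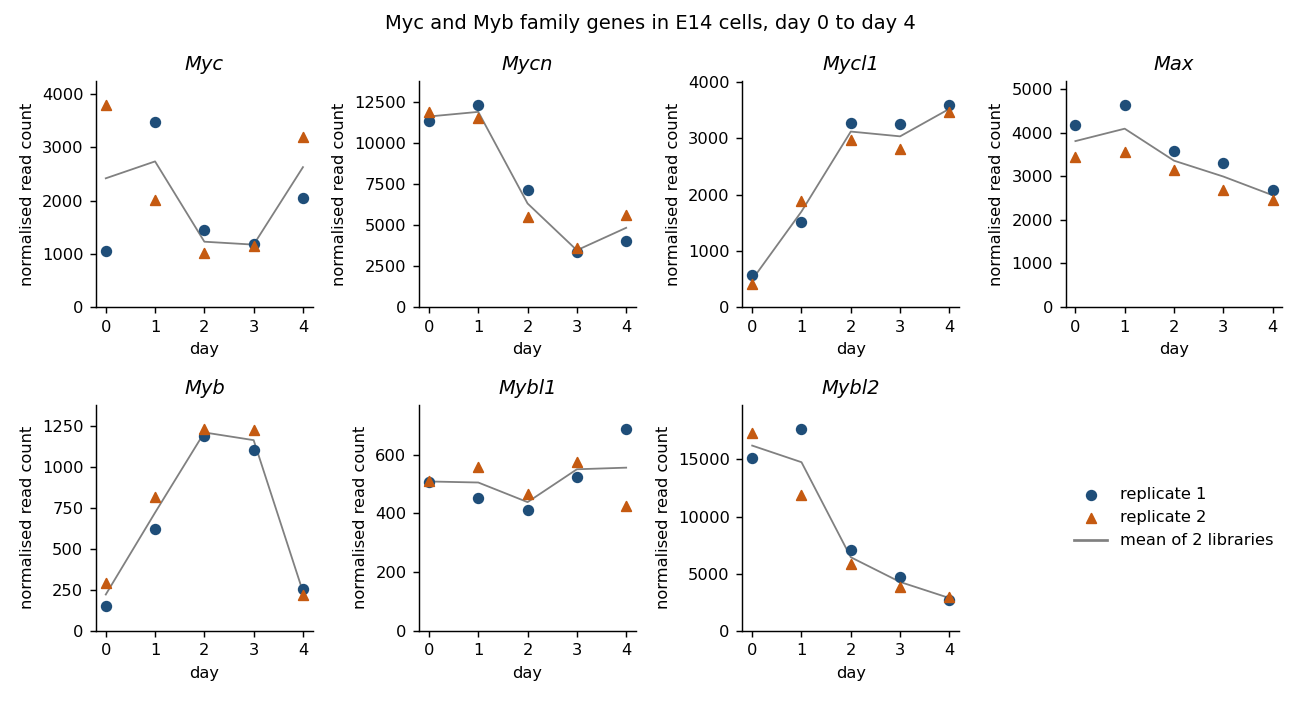
Normalised read count (vertical axes, each from 0) of the 7 genes in E14 cells by day (horizontal axes); circles are replicate 1, triangles replicate 2, and the line joins the means of 2 libraries. Mycn and Mybl2 lie lower from day 2 on, Mycl1 lies higher, Myb is high at days 2 and 3, and the 2 day 0 libraries of Myc lie at 1047 and 3793.

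Over the time course, Mycl1 rose while Mycn and Mybl2 fell, and Myb rose and then dropped back. Of the 7 members, 4 changed over the 5 days (limma's F test, adjusted p under 0.05), beside 38.9% of all 15841 tested genes. They were Mycl1 (adjusted p = 8.43e-05), Mybl2 (adjusted p = 0.00014), Mycn (adjusted p = 0.000406) and Myb (adjusted p = 0.00041). Max (adjusted p = 0.0829), Myc (adjusted p = 0.178) and Mybl1 (adjusted p = 0.788) did not pass. Whether Myc passed depended on whether both day 0 libraries were kept, and on the method. For Max it depended on day 0 replicate 2 and on the method. With DESeq2, 6 members changed, Max and Myc being added. DESeq2 also called more of all genes, with 3172 higher and 3108 lower between day 4 and day 0, against 3045 and 2653 with limma. Between day 4 and day 0, Mycl1 was higher, beside 19.2% of all genes that were higher, and Mycn, Mybl2 and Max were lower, beside 16.7% of all genes that were lower. With 7 members, 1 higher gene is close to the share over all genes.

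Mycn, the family member best known from the early embryo and the nervous system, had normalised read counts of 11349 and 11938 at day 0, 12330 and 11522 at day 1, 7147 and 5512 at day 2, 3347 and 3599 at day 3, and 4056 and 5631 at day 4. Days 0 and 1 overlapped each other and lay above all later libraries, and day 3 was the lowest. The mean was 4844 ± 1114 at day 4, against 11643 ± 416 at day 0 (SD, n = 2 libraries each), a log2 fold change of -1.28 ± 0.19 (SE, limma, adjusted p = 0.000906). The steps from day 1 to day 2 (log2 fold change -0.93, adjusted p = 0.061) and from day 2 to day 3 (-0.85, adjusted p = 0.171) did not pass on their own. Both of these falls were called with DESeq2 and in fits of the compared days alone, but not with edgeR. The difference of day 4 over day 3 did not pass either (0.46, adjusted p = 0.294).

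Mycl1, the least studied of the 3 Myc genes and not required for mouse development, moved the other way. Its normalised read counts were 563 and 413 at day 0, 1508 and 1891 at day 1, 3269 and 2971 at day 2, 3262 and 2808 at day 3, and 3587 and 3460 at day 4. Day 0 was lowest and day 1 intermediate, with no overlap, while days 2 and 3 overlapped and day 4 lay above both. At day 4 the mean was 3524 ± 89.7, against 488 ± 106 at day 0 (SD, n = 2 each), a log2 fold change of 2.87 ± 0.20 (limma, adjusted p = 2.07e-05), or 7.29-fold. Much of this was present by day 1, where Mycl1 was higher than at day 0 by 1.81 ± 0.20 on the log2 scale (adjusted p = 0.003). The difference of day 2 over day 1 was 0.88 (adjusted p = 0.0691). It was called with DESeq2 and in a fit of those days alone, but not with edgeR.

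Myc, the founding member and a gene that responds quickly to growth signals, had 1047 and 3793 normalised reads at day 0, 3471 and 2005 at day 1, 1443 and 1015 at day 2, 1193 and 1155 at day 3, and 2055 and 3205 at day 4. Days 2 and 3 were low and close to each other, and the day 0 libraries spanned nearly the full range of the series. The log2 difference of day 0 replicate 1, the library with the higher immediate early genes, from replicate 2 was -1.86 for Myc, and 6.22% of tested genes had as large a gap. The log2 fold change of day 4 over day 0 was 0.36 ± 0.51 (adjusted p = 0.603). Without day 0 replicate 1 it was -0.56 (adjusted p = 0.22), and without replicate 2 it was 1.29 (adjusted p = 0.0128), so its direction rests on which day 0 library is used. Relative to day 3, Myc at day 4 was at 1.13 ± 0.51 on the log2 scale (adjusted p = 0.339), with both day 4 libraries above both day 3 libraries. This SE comes from all 5 days, among them day 0 with its wide gap. In a fit of days 3 and 4 alone, Myc was called higher at day 4, while edgeR and DESeq2 did not call it.

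Max, the partner without which MYC proteins do not bind DNA as dimers, had 4167 and 3441 normalised reads at day 0, 4625 and 3552 at day 1, 3575 and 3136 at day 2, 3293 and 2691 at day 3, and 2685 and 2443 at day 4. Neighbouring days overlapped up to day 3, and both day 4 libraries lay below all others. The mean was 2564 ± 171 at day 4, against 3804 ± 514 at day 0 (SD, n = 2 each), a log2 fold change of -0.56 ± 0.19 (limma, adjusted p = 0.0441). This call was lost with edgeR (adjusted p = 0.0539), without the filter, with TMM scaling, in a fit of days 0 and 4 only, and without 7 of the 10 libraries in turn. The day means of Max spanned 0.66 on the log2 scale, against 1.78 for Mycn and 2.87 for Mycl1.

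The make-up of the Myc family therefore shifted. Shares of the reads that fell on Myc, Mycn and Mycl1 together were not corrected for transcript length, so they are set side by side between days and not between genes. Mycl1 took 3.45 ± 1.26% at day 0, 10.5 ± 2.51% at day 1, 29.4 ± 2.63% at day 2, 39.5 ± 3.30% at day 3 and 32.6 ± 6.26% at day 4 (SD, n = 2 each). Mycn took 80.8 ± 9.64% at day 0, 71.2% and 74.7% in the libraries of day 1, 59.2 ± 1.58% at day 2, 45.3 ± 3.31% at day 3 and 43.8 ± 2.81% at day 4. The share of Myc was 15.8 ± 10.9% at day 0 and 23.6 ± 3.44% at day 4, with overlapping libraries. From day 0 to day 3 the mean share of Mycl1 was higher, and that of Mycn lower, on each day than on the day before.

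**Figure D2:**
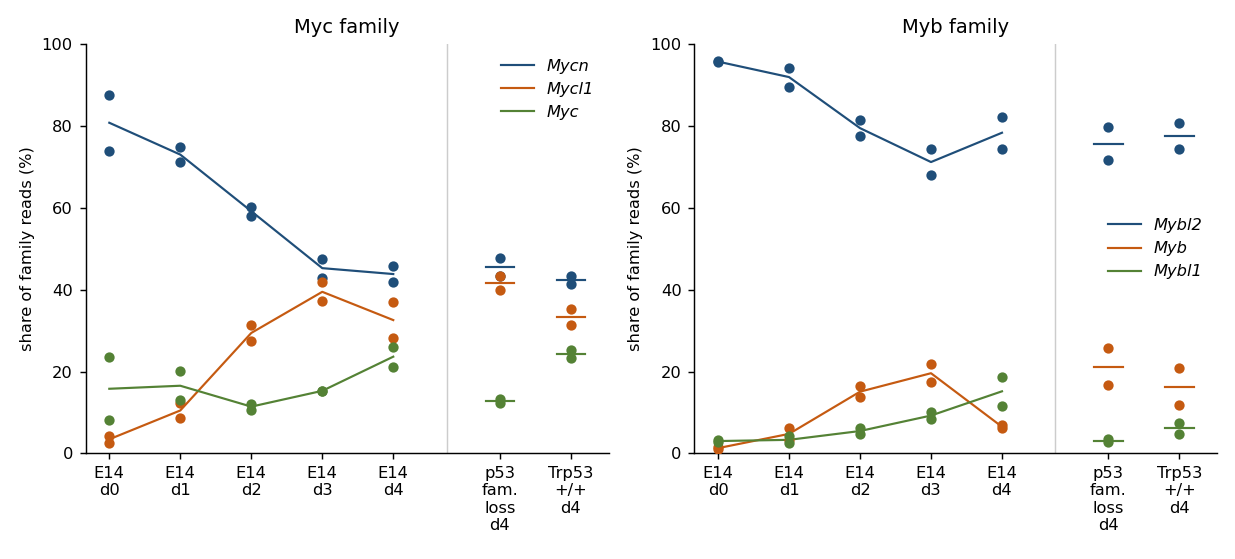
Share of family reads (%, vertical axes) held by each gene of the Myc family (left) and the Myb family (right) in E14 cells at days 0 to 4 (d0 to d4) and in day 4 EBs of p53 family loss and Trp53+/+; points are libraries, and lines or bars are means. Mycl1 reaches a mean of 39.5% at day 3 as Mycn falls to 45.3%, and Myb reaches 19.6% at day 3 and returns to 6.51% at day 4.

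Mybl2, which works with MuvB in dividing cells, had 15110 and 17303 normalised reads at day 0, 17663 and 11844 at day 1, 7036 and 5838 at day 2, 4705 and 3838 at day 3, and 2737 and 2995 at day 4. Days 0 and 1 overlapped, and each later day lay below the one before it. The mean was 2866 ± 182 at day 4, against 16207 ± 1550 at day 0 (SD, n = 2 each), a log2 fold change of -2.50 ± 0.21 (limma, adjusted p = 4.83e-05), or 5.65-fold lower. Of the single steps, that of day 2 against day 1 passed (log2 fold change -1.17 ± 0.21, adjusted p = 0.0489), beside 0.436% of all genes that were lower and 0.158% that were higher. This step is marginal: it missed the threshold with edgeR (adjusted p = 0.0509), with a pseudocount of 0.5 (adjusted p = 0.0503), without the filter (adjusted p = 0.0652), and without 7 of the 10 libraries in turn.

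Myb, the blood progenitor factor, had 153 and 291 normalised reads at day 0, 625 and 820 at day 1, 1191 and 1234 at day 2, 1104 and 1226 at day 3, and 255 and 222 at day 4. The values formed a peak at days 2 and 3, and day 4 fell within the range of day 0. At day 1, Myb was higher than at day 0 by 1.76 ± 0.30 on the log2 scale (limma, adjusted p = 0.016). Myb and Mycl1 were the 2 members called at that step, beside 1.75% of all genes that were higher and 1.55% that were lower. Both calls use day 0, which the comparison of day 4 with day 0 shares. They were lost in a fit of those days alone (adjusted p = 0.203 for Myb, 0.103 for Mycl1), and that of Myb also without day 1 replicate 2 (adjusted p = 0.129).

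No member passed the test between day 3 and day 2 with limma, where 2 had an unadjusted p under 0.05, where DESeq2 called 1 (Mycn, lower) and where edgeR called 0. Over all genes, 0.133% were higher at that step and 0% lower (918 with an unadjusted p under 0.05; edgeR called 0 lower genes and DESeq2 139). From day 3 to day 4, Myb fell to a mean of 238 ± 23.4, against 1165 ± 86.2 at day 3 (SD, n = 2 each), a log2 fold change of -2.29 ± 0.30 (limma, adjusted p = 0.00417), or 4.88-fold lower. It was the 1 member called at that step, beside 0.619% of all genes that were lower and 2.31% that were higher. The call was lost without day 3 replicate 1 (adjusted p = 0.0586) and without day 4 replicate 2 (adjusted p = 0.0707), at log2 fold changes of -2.36 and -2.19. Between day 4 and day 0 the log2 fold change of Myb was 0.17 ± 0.30 (adjusted p = 0.677), and it was -0.29 without day 0 replicate 1 (adjusted p = 0.338) and 0.64 without replicate 2 (adjusted p = 0.0452).

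Mybl1, the meiotic family member, stayed within a narrow range. It had 506 and 512 normalised reads at day 0, 454 and 557 at day 1, 412 and 465 at day 2, 525 and 575 at day 3, and 688 and 424 at day 4. Its day means spanned 0.33 on the log2 scale, and the day 4 libraries held both the highest value and one of the lowest. The log2 fold change of day 4 over day 0 was 0.086 ± 0.26 (adjusted p = 0.821). Among reads of the Myb family, Mybl2 took 95.7 ± 0.18% at day 0, 91.9 ± 3.29% at day 1, 79.5 ± 2.81% at day 2, 71.2 ± 4.40% at day 3 and 78.3 ± 5.57% at day 4 (SD, n = 2 each). Myb took 1.29 ± 0.45% at day 0, 4.77 ± 2.03% at day 1, 15.1 ± 1.83% at day 2, 19.6 ± 3.05% at day 3 and 6.51 ± 0.59% at day 4.

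**Figure D3:**
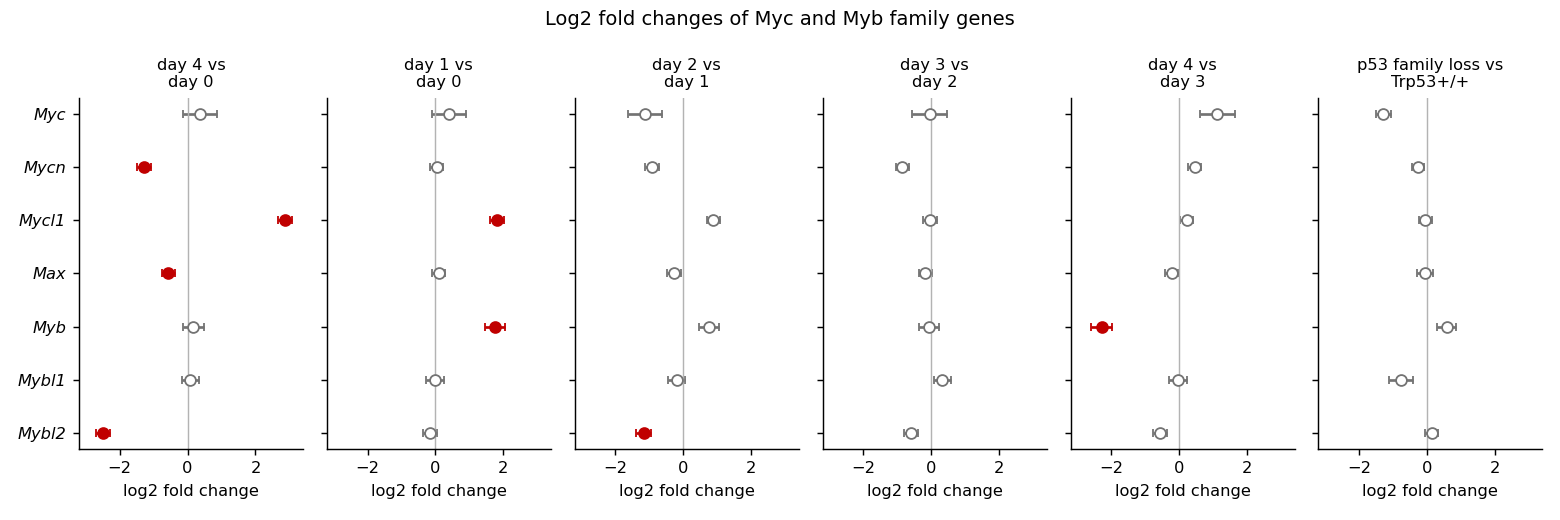
Log2 fold change ± SE (horizontal axes, limma) of the 7 genes (rows) in each of 6 comparisons (panels), the later day over the earlier one or p53 family loss over Trp53+/+; filled red points have an adjusted p under 0.05 and open points do not. Mycl1 (2.87) and Mybl2 (-2.50) have the widest changes from day 0 to day 4, and the red point of day 4 against day 3 is Myb (-2.29).

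As a description over the 10 libraries, which share days and line, the log2 levels of Mycn and Mybl2 had a Pearson r of 0.905, those of Max and Mybl2 0.886, those of Mycl1 and Mybl2 -0.816, and those of Mycn and Mycl1 -0.746. Among all tested genes, the 3 with the highest r were Fgf18 (0.977), Atp2a2 (0.976) and Anapc5 (0.972) for Mycn. For Mybl2 they were Ppp2r2d (0.997), Itgb7 (0.994) and Gpa33 (0.993). For Mycl1 they were Trim21 (0.989), Vps11 (0.988) and Unc5b (0.984). For Myb they were Slmo1 (0.980), Ppp1r3d (0.971) and Prom2 (0.970), and for Myc they were Armc9 (0.953), Fam43a (0.951) and Nrbf2 (0.948). Max and Mybl1, whose day means spanned no more than 1 on the log2 scale, were given no such genes.

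MAX also pairs with the MXD proteins, MNT and MGA, which oppose MYC at E-boxes, and the related MLX pairs with MLXIP, a sensor of glucose metabolites. Of 9 tested genes of this network, 2 rose, 1 fell and 6 did not pass between day 4 and day 0, with a median log2 fold change of -0.44, beside 0.013 over all genes. These counts are close to the 19.2% of all genes that were higher and the 16.7% that were lower. Mxd4 rose to 418 ± 22.2 at day 4, against 68.9 ± 18.4 at day 0 (log2 fold change 2.61 ± 0.29, adjusted p = 0.000178). Mlxip rose by 1.25 ± 0.24 (adjusted p = 0.00369), and Mxd3, which is known to be made in dividing cells, fell by 1.41 on the log2 scale (adjusted p = 0.00675). Mnt did not pass, at -0.65 on the log2 scale (adjusted p = 0.111).

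Of 13 tested cofactors and turnover factors of MYC, 4 fell and 9 did not pass (median -0.24). Over all genes, 16.7% were lower and 19.2% higher. Usp28, a deubiquitinase that spares MYC from breakdown, fell by 1.17 on the log2 scale (adjusted p = 0.00272), and Fbxw7, the ubiquitin ligase subunit that marks MYC for breakdown, fell by 0.57 (adjusted p = 0.0232). The other 2 were Wdr5, a chromatin adaptor of MYC, which fell by 1.10 (adjusted p = 0.00485), and Aurka, a mitotic kinase that stabilises MYCN, which fell by 0.58 (adjusted p = 0.0175). Of 21 tested target genes, 1 rose, 8 fell and 12 did not pass, with a median of -0.50, beside the same shares over all genes. Srm, which makes spermidine, fell to 5263 ± 463 at day 4, against 12211 ± 254 at day 0 (log2 fold change -1.22 ± 0.22, adjusted p = 0.00238). The nucleolar gene Nop58 fell by 0.99 (adjusted p = 0.00755) and Polr1b, a subunit of RNA polymerase I, fell by 0.82 (adjusted p = 0.0128). Ldha, the lactate dehydrogenase of glycolysis, rose by 1.59 ± 0.24 (adjusted p = 0.000837).

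The MuvB complex, which Mybl2 joins, has a repressive form called DREAM. Of 12 tested genes of MuvB and DREAM, 1 fell and 11 did not pass (median -0.28), beside 16.7% of all genes that were lower. The 1 was Rbl2 (p130), the pocket protein of DREAM, which fell by 0.97 on the log2 scale (adjusted p = 0.0201). Of the others, Lin9 was at -0.39, Lin37 at -0.46 and E2f4 at -0.39 on the log2 scale (adjusted p = 0.153, 0.194 and 0.147). Of 15 tested G2 and M phase targets of Mybl2 and MuvB, 3 fell and 12 did not pass (median -0.40), close to the 16.7% of all genes that were lower. Ube2c, which feeds the anaphase-promoting complex, fell by 1.15 (adjusted p = 0.00449), cyclin B1 (Ccnb1) fell by 0.90 (adjusted p = 0.0225) and Nusap1 fell by 0.62 (adjusted p = 0.0175), while Mybl2 itself fell by 2.50.

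**Figure D4:**
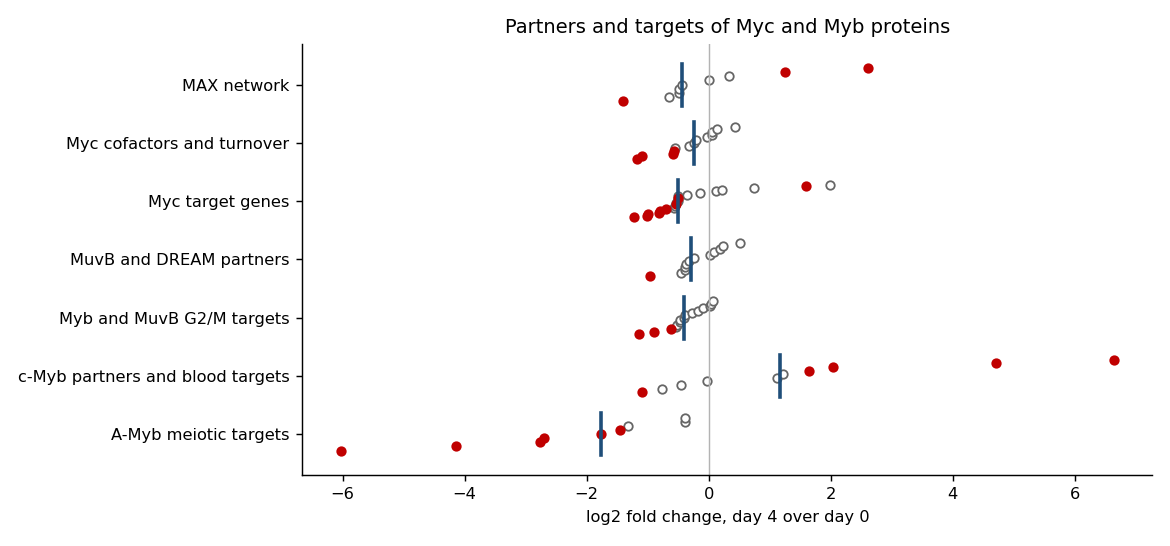
Log2 fold change of day 4 over day 0 (horizontal axis) for partners and targets of the Myc and Myb proteins, 1 row for each of 7 gene lists; red points have an adjusted p under 0.05, open points do not, and blue bars are list medians. The blue bars run from -1.76 for the row labelled A-Myb meiotic targets (germ cell and meiosis genes) to 1.16 for the c-Myb partners and blood targets.

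Of 10 tested partners and blood targets of c-Myb, 4 rose, 1 fell and 5 did not pass between day 4 and day 0 (median 1.16). Over all genes, 19.2% were higher and 16.7% lower. Tal1, a regulator of the first blood cells, was at 1018 ± 59.7 at day 4 and 24.9 ± 33.6 at day 0 (log2 fold change 6.64 ± 1.07, adjusted p = 0.00135). The size of this rise rests on day 0, with 4.36 without day 0 replicate 1 and 8.92 without replicate 2 (adjusted p = 1.5e-05 and 5.12e-07). Lmo2, its partner, rose by 4.71 (adjusted p = 3.63e-05), Ets1 by 2.04 (adjusted p = 0.000822) and the survival gene Bcl2 by 1.64 (adjusted p = 0.0088). Kit, the receptor for stem cell factor, fell by 1.10 (adjusted p = 0.0319). From day 3 to day 4, when Myb itself fell, 3 of the 10 (Runx1, Lmo2 and Ets1) were called higher and 0 lower. At that step, 2.31% of all genes were higher and 0.619% lower. A link of these genes to Myb was not tested. Kit and Runx1 are named after their values were seen. The summed level of 7 blood markers was 36.7 and 39.2 CPM at day 4, against 2.25 and 3.19 CPM at day 0. Hbb-bh1, Hba-x, Hbb-y, Sfpi1 (PU.1) and Ptprc (CD45) were below 1 CPM in both day 4 libraries. Most of the day 4 sum was Tal1, at 1018 normalised reads beside 66.0 for Gata1. Tal1, Gata1 and Sfpi1 are also in the c-Myb list, so the sum is not separate from the values above. The part of blood cells, if present, in the result was not tested.

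Of 9 tested genes of the A-Myb list, which holds germ cell and meiosis genes, 6 fell and 3 did not pass (median -1.76). Over all genes, 16.7% were lower. Mybl1 itself was not called. Stra8 and Dazl are not taken here as direct targets of A-Myb, and a link of the list to Mybl1 was not tested. Stra8, which readies germ cells for meiosis, fell by 6.03 on the log2 scale (adjusted p = 9.29e-05), Dazl, a germ cell RNA-binding protein, fell by 4.15 (adjusted p = 0.000554), Mael fell by 2.70 (adjusted p = 0.000107) and Ddx4 fell by 1.45 (adjusted p = 0.00123). Without day 0 replicate 1 or replicate 2, the log2 fold change of Stra8 was -5.15 or -6.91 and that of Dazl -3.12 or -5.18, all still called. The summed level of 5 germ cell markers, 4 of which are also in this list, was 66.0 and 44.3 CPM at day 4, against 282 and 123 CPM at day 0. Their part in the result was not tested. Of the 10 immediate early genes, 2 fell (Ier2 and Dusp1) and 8 did not pass (median -1.08), beside 16.7% of all genes that were lower. Without day 0 replicate 1, 3 of the 10 rose and 1 fell, and without replicate 2, 7 fell, while 1 fell without day 4 replicate 1.

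With all libraries, 33.3% of the 99 list genes were called between day 4 and day 0, beside 36% of all tested genes. Counts for other lists also moved with the library left out. Calls over all genes did so too, as given in the last section, so such shifts are not particular to these lists. Without day 0 replicate 1 or replicate 2, Myc targets had 11 or 13 calls in place of 9, of which 4 in place of 1 were rises without replicate 2, the cofactors 6 in each case in place of 4, and the c-Myb list 6 in each case in place of 5. Without day 4 replicate 1 or replicate 2, Myc targets had 2 or 3 calls in place of 9, the cofactors 2 in each case in place of 4, and the c-Myb list 3 in each case in place of 5. The G2 and M phase list had 6 calls without day 0 replicate 1, 5 without day 0 replicate 2, and 1 without either day 4 library, in place of 3. The MuvB and DREAM list had 3 and 2 calls without day 0 replicates 1 and 2, and 0 without either day 4 library. The MAX network list ranged from 2 to 4 calls and the A-Myb list from 5 to 7.

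Among the list genes named, Ccnb1, Kit and Ier2 lost their calls without day 0 replicate 1 (log2 fold changes of -0.47, -0.60 and -0.81; adjusted p = 0.0739, 0.145 and 0.0564). Cdc20 passed without that library (-0.70, adjusted p = 0.0182), as did Runx1 (1.62, adjusted p = 0.0265), and Mnt and Ccnd2 passed without day 0 replicate 2 (-1.22 and 3.94, adjusted p = 0.000277 and 3.62e-05). Aurka, Fbxw7, Polr1b, Rbl2, Ccnb1, Nusap1, Bcl2 and Kit lost their calls without either day 4 library, at adjusted p = 0.0509 to 0.164. Nop58 and Ier2 lost theirs without day 4 replicate 1 (adjusted p = 0.0591 and 0.113), and Mxd3 and Dusp1 without day 4 replicate 2 (adjusted p = 0.0713 and 0.129).

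In the comparison of p53 family loss with Trp53+/+ at day 4, Trp53 itself had 866 and 802 normalised reads in p53 family loss, against 8339 and 11784 in Trp53+/+ (log2 fold change -3.57 ± 0.20, limma, adjusted p = 0.00168). Trp73 was also lower (-2.32, adjusted p = 0.0224), as was the p53 target Cdkn1a (-3.77, adjusted p = 0.00424). Mdm2, another p53 target, did not pass (-0.68, adjusted p = 0.164). Trp63 averaged 2.22 normalised reads in p53 family loss and 5.69 in Trp53+/+, too few to be tested.

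None of the 7 members passed the test with limma, where 0.566% of the 14840 tested genes were higher and 0.674% lower. Of the members, 1 had an unadjusted p under 0.05 (Myc), edgeR called 0, and DESeq2 called 1 (Myc). Over all genes, DESeq2 called 280 higher and 370 lower, against 84 and 100 with limma. Myc had 736 and 952 normalised reads in p53 family loss, against 1745 and 2381 in Trp53+/+. The groups did not overlap, and the log2 fold change was -1.28 ± 0.22 (adjusted p = 0.0636), or 2.43-fold lower. With DESeq2 the log2 fold change was -1.31 (adjusted p = 2.42e-05), and leaving out 1 library at a time gave -1.51 to -1.06, past the threshold in 3 of 4 cases and at adjusted p = 0.134 without p53 family loss replicate 1. The share of Myc among Myc family reads was 12.9 ± 0.62% in p53 family loss and 24.3 ± 1.41% in Trp53+/+ (SD, n = 2 each).

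The other Myc genes overlapped between the genotypes. Mycn had 2821 and 3106 normalised reads in p53 family loss, against 3100 and 4076 in Trp53+/+ (log2 fold change -0.26 ± 0.18, adjusted p = 0.627). Mycl1 had 2364 and 3096 in p53 family loss, against 2651 and 2964 in Trp53+/+ (-0.051 ± 0.18, adjusted p = 0.94). Max had 1822 and 2401 in p53 family loss, against 1835 and 2637 in Trp53+/+ (-0.073 ± 0.23, adjusted p = 0.933). The missed threshold does not show equal levels, since 2 libraries a group give the SEs above.

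In the Myb family, Myb had 803 and 1147 normalised reads in p53 family loss, against 519 and 793 in Trp53+/+, without overlap but with a log2 fold change of 0.58 ± 0.28 (adjusted p = 0.441). Mybl1 had 168 and 123 in p53 family loss, against 333 and 183 in Trp53+/+ (-0.78 ± 0.35, adjusted p = 0.411), also without overlap. Mybl2 had 3813 and 3200 in p53 family loss, against 3580 and 2818 in Trp53+/+ (0.14 ± 0.18, adjusted p = 0.823), with overlap. Without Trp53+/+ replicate 2, Myb (0.89, adjusted p = 0.00672) and Mybl1 (-1.21, adjusted p = 0.00896) passed the threshold.

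**Figure D5:**
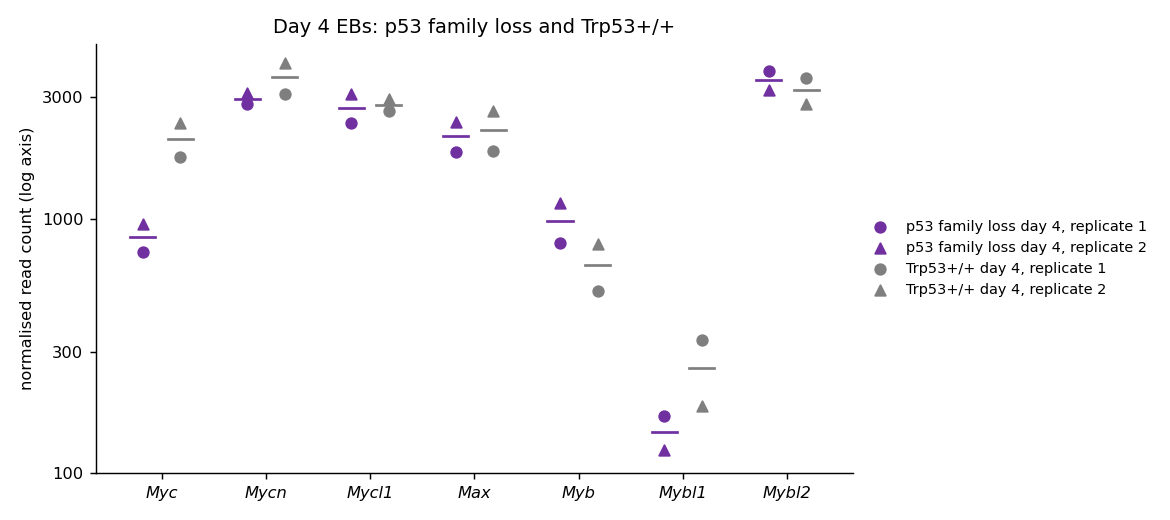
Normalised read count (log axis) of the 7 genes in day 4 EBs, with p53 family loss in purple left of Trp53+/+ in grey; circles are replicate 1, triangles replicate 2, and bars the means of 2 libraries. Myc is at 736 and 952 in p53 family loss, below 1745 and 2381 in Trp53+/+, while Mycn, Mycl1, Max and Mybl2 overlap.

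Of the 98 list genes tested between the genotypes, 1 was called (1.02%, beside 1.24% of all tested genes) and 11 had an unadjusted p under 0.05 (11.2%, beside 13.9% of all tested genes). These shares are near those over all genes. The called gene was Ccnd2 (cyclin D2), a Myc target, with 851 ± 129 normalised reads in p53 family loss and 2528 ± 466 in Trp53+/+ (SD, n = 2 each), or -1.57 ± 0.20 as a log2 fold change (adjusted p = 0.0269). Of 21 tested Myc targets, 16 had a negative log2 fold change, with a median of -0.13, beside 0.0070 over all genes. Medians were near 0 for the MAX network (-0.0033), the cofactors (-0.063), the MuvB and DREAM genes (0.054), the G2 and M phase targets (0.0080) and the immediate early genes (-0.023). For the c-Myb list the median was 0.25, with Tal1 at 1.23 (adjusted p = 0.183). For the A-Myb list it was 1.5, with Dazl at 2.38 (adjusted p = 0.0782) and Ddx4 at 1.75 (adjusted p = 0.0558), and 7 of 8 tested genes had a positive value.

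Sums of cell type markers differed between the genotypes without overlap, except those of pluripotency, which overlapped. The streak and mesoderm sum was 278 and 236 CPM in p53 family loss, against 1217 and 1308 CPM in Trp53+/+. The neural sum was 201 and 194 CPM in p53 family loss, against 18.6 and 41.9 CPM in Trp53+/+. Neurog2 and Dcx were below 1 CPM in all 4 libraries, and the neural sum was also 165 and 174 CPM in E14 ES cells at day 0. The germ cell sum was 54.0 and 44.5 CPM in p53 family loss, against 22.5 and 12.8 CPM in Trp53+/+, with Piwil1 below 1 CPM in all 4 libraries. The blood sum was 23.3 and 18.8 CPM in p53 family loss, against 6.38 and 4.92 CPM in Trp53+/+, with Sfpi1 and Ptprc below 1 CPM in all 4 libraries. Fibroblast markers summed to 106 and 87.0 CPM in p53 family loss, against 43.9 and 40.2 CPM in Trp53+/+, and pluripotency markers to 822 and 1013 CPM in p53 family loss, against 937 and 1359 CPM in Trp53+/+. The part of such cells, if present, in the values of Myc, Myb and Mybl1 was not tested.

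The 2 tables were scaled separately, so levels are set side by side only in CPM and without a test. In E14 EBs at day 4, Myc was at 89.0 ± 25.8 CPM, and it was at 34.9 ± 4.79 CPM in p53 family loss and 83.2 ± 15.3 CPM in Trp53+/+ (SD, n = 2 each). Myb was at 8.10 ± 0.95 CPM in E14 EBs at day 4, 40.3 ± 8.28 CPM in p53 family loss and 26.4 ± 6.92 CPM in Trp53+/+. At day 3 Myb had been at 39.7 ± 3.10 CPM in E14 cells, so the Trp53+/+ mean lay between those of days 3 and 4 of E14. It also lay between those of day 1 (22.45 ± 4.71 CPM) and day 2 (40.3 ± 1.62 CPM), so Myb does not match these EBs to a day. Mybl2 was at 97.3 ± 4.25 CPM in E14 EBs at day 4, 146 ± 24.5 CPM in p53 family loss and 130 ± 26.4 CPM in Trp53+/+.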

How the data were processed

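RNA was sequenced from 14 libraries (10 of the E14 time course, 4 of the genotypes). The 16 ChIP-seq and input samples were not analysed here. Per the labels' protocols, libraries were made with TruSeq RNA v2 and read with paired ends. Per the submitters' processing notes, the mouse build was mm9 and the tools included HTSeq 0.5.4, Bowtie2, FastQC 0.11.3, DESeq2 and SAMtools 0.1.19, with no role or order given. The deposited tables hold a normalised signal, that equals reads over a factor for each library: all values were whole multiples of the smallest step within 1e-06. The authors did not state this scaling in the sources used here. Recovered reads served for the filter, CPM and count models.

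All genes of a table entered 1 fit in limma 3.58.1 under R 4.3.3 (trend on mean intensity) on log2(signal + 1), after edgeR's filterByExpr on the recovered reads left 15841 and 14840 genes. Log2 fold changes are on that scale, which understates changes of low genes. Calls have a Benjamini-Hochberg adjusted p under 0.05 over all tested genes, and every adjusted p comes from limma unless edgeR 4.0.16 (quasi-likelihood, TMM) or DESeq2 1.42.0 is named. Residual degrees of freedom were 5 and 2, with 4.98 and 4.33 prior ones. Whether libraries of 1 group stem from different cultures is not in the labels. The p-values reflect the spread among these libraries alone, which may be technical. Scripts were tested on simulated data.

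The 7 members, 8 gene lists and marker lists were chosen with earlier results of these data known. Beside the members, genes are named from a list if they have 1 of its 4 smallest p-values in day 4 against day 0 or in the genotypes, and as likest genes by Pearson r over 10 libraries. Spi1 is Sfpi1 in the tables. Promoters are RefSeq's. Strand use in counting is not given in the sources used here, so overlapping antisense transcripts cannot be told apart. Alternatives were edgeR, DESeq2, TMM scaling, pseudocounts of 0.5 and 10, no filter, fits of the compared days only, a replicate block and each library left out; the list counts and list genes without day 0 or day 4 libraries were added after seeing the data. Replicate numbers were not taken as pairs.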

Additional observations from a re-analysis of the deposited data

How the results depend on the processing

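The calls of Mycl1, Mycn and Mybl2 between day 4 and day 0 held under all alternatives run, with log2 fold changes of 2.64 to 3.09, -1.52 to -1.05 and -2.59 to -2.40. Fits of the compared days alone gave 0 member calls between day 1 and day 0, 3 between day 2 and day 1, 1 between day 3 and day 2, and 3 between day 4 and day 3. The counts over all genes at these steps are not reported here. Between day 4 and day 0, such a fit called 2822 genes in place of 5698. DESeq2 called 3 members between day 2 and day 1, beside 639 higher and 639 lower genes in place of 25 and 69. It called 1 member between day 3 and day 2, beside 170 higher and 139 lower genes in place of 21 and 0. Between the genotypes it called 1 member (Myc), beside 650 genes in place of 184. Between day 2 and day 1, edgeR, no filter and a pseudocount of 0.5 each called 0 members in place of 1. Leaving out each library in turn, member calls ranged from 4 to 6 on any day, 3 to 6 for day 4 against day 0, 1 to 3 for day 1 against day 0, 0 to 5 for day 2 against day 1, 0 to 1 for day 3 against day 2, 0 to 2 for day 4 against day 3, and 0 to 3 between the genotypes. Calls over all genes ranged from 3444 to 10525 on any day (6159 with all libraries), 2817 to 7619 between day 4 and day 0, and 208 to 1613 between the genotypes.

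Some uncalled differences changed sign when 1 library was left out. For day 4 over day 0 the log2 fold changes ranged from -0.56 to 1.29 for Myc, -0.29 to 0.64 for Myb and -0.26 to 0.43 for Mybl1. For day 1 over day 0 they ranged from -0.52 to 1.33 for Myc, -0.45 to 0.13 for Mybl2 and -0.015 to 0.083 for Mycn. For day 3 over day 2 they ranged from -0.30 to 0.21 for Myc, -0.13 to 0.017 for Myb and -0.15 to 0.066 for Mycl1. Between the genotypes they ranged from -0.34 to 0.19 for Max, -0.036 to 0.31 for Mybl2 and -0.25 to 0.14 for Mycl1. The cause was not tested. A group left with 1 library was assumed to vary like the other groups.

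Same-numbered libraries deviated together in 3 of 10 pairs of days (r over 0.1, range -0.19 to 0.35), so the numbers were not taken as pairs in the time course. In the genotype table r was 0.57, so same-numbered libraries deviated together there, but this is 1 pair of groups and the labels do not tie a number to a shared batch; whether the numbers pair these libraries was not settled. With the replicate block, 2973 genes and 3 members were called between the genotypes, with Myb higher (0.58, adjusted p = 0.00398) and Mybl1 (-0.78, adjusted p = 0.0107) and Myc (-1.28, adjusted p = 1.16e-06) lower in p53 family loss, and 5 members changed on any day, with Max added.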
